A study of Homo sapiens and Mus musculus with 76 samples.

Results

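The 10 genes described here encode the enzymes and adaptors that act just inside the cell when a B cell receptor is engaged: LYN, LCK, BLK, SYK, BTK, BLNK, PLCG2, PRKCB, PIK3CD and INPP5D. They were chosen by symbol for that role, and all 10 were found among the 23571 gene symbols of the human tables. The series sequenced full-length cDNA of polyadenylated RNA to set variants of an improved single-cell protocol, Smart-Seq2, beside commercial SMART-Seq. Of its 76 libraries the 63 human ones are used here, and the 13 mouse libraries are not analysed.

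The cells in which the genes were read one by one are 7 single cells of DG-75, a B cell line from a human Burkitt lymphoma, prepared with Smart-Seq2. The background is HEK293T, a human embryonic kidney line. It came as 7 single cells with Smart-Seq2, as 8, 8, 6 and 6 single cells with variants 1 to 4 of Smart-Seq2, and as 4 single cells with SMART-Seq. Pools of 100, 50 and 10 HEK293T cells (3 libraries each) and HEK293T total RNA of 1 ng (3 libraries), 100 pg (3) and 10 pg (2) were also prepared with Smart-Seq2. The labels record no treatment, do not say how the variants differ and name no culture for any library. DG-75 is 1 line, so its 7 cells are 1 sample and carry no test.

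Engagement of the B cell receptor leads Src family kinases, of which LYN is the best known in B cells, to phosphorylate the CD79A and CD79B tails. SYK docks there and phosphorylates the adaptor BLNK, which brings BTK and the phospholipase PLCG2 together. PLCG2 then makes the second messengers that release calcium and switch on the kinase PRKCB, while PIK3CD makes the lipid that recruits BTK and the phosphatase INPP5D (SHIP1) removes it.

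Levels are given as CPM, reads of a gene per 1000000 reads assigned to genes. DG-75 cells had 2235894 to 7882958 such reads and 9588 to 10863 genes with a read, and HEK293T Smart-Seq2 cells had 5285564 to 16551060. The libraries came from PCR-amplified cDNA without molecular identifiers, so every interval below covers counting error only. B cell identity of the DG-75 libraries was checked with 10 marker genes, all of them over 2-fold higher than in HEK293T, including CD74 and CD79A. Summed over the list, these markers stood at 642 to 8004 CPM in the DG-75 cells, lowest in cell 7, and at 0 to 9.09 CPM in the HEK293T cells. Of 10 T and NK cell markers 8 had no read in any DG-75 cell, among them CD3D, CD3E, CD3G and CD2. Their sum ran from 0 to 24.5 CPM, and that of 8 myeloid markers from 0 to 298 CPM. Over the DG-75 cells together LYZ, which encodes lysozyme, made up most of the myeloid sum, with 63.6 CPM over the DG-75 cells and a read in 6 of them.

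Before the levels, 3 promoters are shown because they hold the letters of motifs that B cell factors are known to bind. RefSeq promoters of build GRCh38.p14 were held for 8 of the 10 genes, all but LYN and BLK, and the 250 bases before each start were searched on both strands. The capitals mark the octamer ATGCAAAT, the motif of the POU factors OCT1 and OCT2, in PRKCB, and the PU.1 motif GAGGAAGT in INPP5D and BTK, where both matches of BTK lie on the reverse strand and read ACTTCCTC.
PRKCB, chr16:23835733-23835982, plus strand: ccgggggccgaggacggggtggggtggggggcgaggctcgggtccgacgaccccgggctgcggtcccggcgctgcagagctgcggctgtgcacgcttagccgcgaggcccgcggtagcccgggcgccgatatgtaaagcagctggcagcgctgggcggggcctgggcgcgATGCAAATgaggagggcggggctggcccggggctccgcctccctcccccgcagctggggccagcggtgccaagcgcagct
BTK, chrX:101390797-101391046, minus strand: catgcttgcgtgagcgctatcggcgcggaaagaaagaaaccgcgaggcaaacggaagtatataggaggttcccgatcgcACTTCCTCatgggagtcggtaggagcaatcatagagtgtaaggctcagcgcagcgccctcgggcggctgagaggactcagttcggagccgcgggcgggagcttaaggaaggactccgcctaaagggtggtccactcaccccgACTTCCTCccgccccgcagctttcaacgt
INPP5D, chr2:233060092-233060341, plus strand: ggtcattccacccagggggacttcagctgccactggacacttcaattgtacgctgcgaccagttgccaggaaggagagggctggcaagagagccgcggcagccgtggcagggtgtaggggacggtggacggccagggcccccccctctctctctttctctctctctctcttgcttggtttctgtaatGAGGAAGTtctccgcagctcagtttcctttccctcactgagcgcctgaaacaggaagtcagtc

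The octamer of PRKCB began 80 bases before the start, and 1.66% of 27305 promoters of this length hold it. BTK had the PU.1 letters at 171 and 29 bases before its start and INPP5D at 63 bases before, against 2.13% of all promoters with at least 1 match. An E-box of the form CAGGTG, found in 17.5% of promoters, occurred in BLNK, PLCG2 and PIK3CD. The EBF1 motif searched, TCCC and GGGA around any 2 bases, is in 1.08% of promoters and TATAAA in 11.1%, and neither was in any of the 8, while LCK and SYK held none of the 5 motifs. None of these motifs shares letters with another in the windows shown. The PRKCB window was the richest in G and C of the 8, at 77.2%, where the median promoter has 58.0%, and that of BLNK the poorest at 40.4%. A match is a string of letters and shows no binding.

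Across the DG-75 cells, 8 of the 10 genes stood over 2-fold above HEK293T, PRKCB stood below it, and LYN was within 2-fold. The ratio used was the log2 of summed CPM with 1 CPM added to both groups, where summed CPM pools the reads of a group's cells. Among 14144 genes with at least 1 summed CPM in either group, 25.1% were over 2-fold higher in DG-75 and 33.8% over 2-fold lower. The median log2 ratio was 5.31 for the 10 genes and -0.18 for all genes compared. Scaling by DESeq2 size factors moved the ratio of the median gene up by 0.42, and by TMM factors by 0.11. With the former 33.4% of genes were higher and 27.9% lower, so the higher share of those past 2-fold went from 42.6% to 54.5%, while the 8 genes above and the 1 below were as many as before under both scalings.

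For LCK, BLK, BTK, PIK3CD and INPP5D every DG-75 cell lay above every HEK293T Smart-Seq2 cell, a pattern seen in 2.1% of the 14144 genes, while 4.4% had every DG-75 cell below. LCK, BLK, BTK and BLNK had no read in any of the 7 HEK293T cells, which held for 4.36% of all genes compared. Among the 5472 genes whose summed DG-75 level lay between 27.4 and 211 CPM, the range of the genes other than PRKCB, that share was 2.14%.

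**Figure D1:**
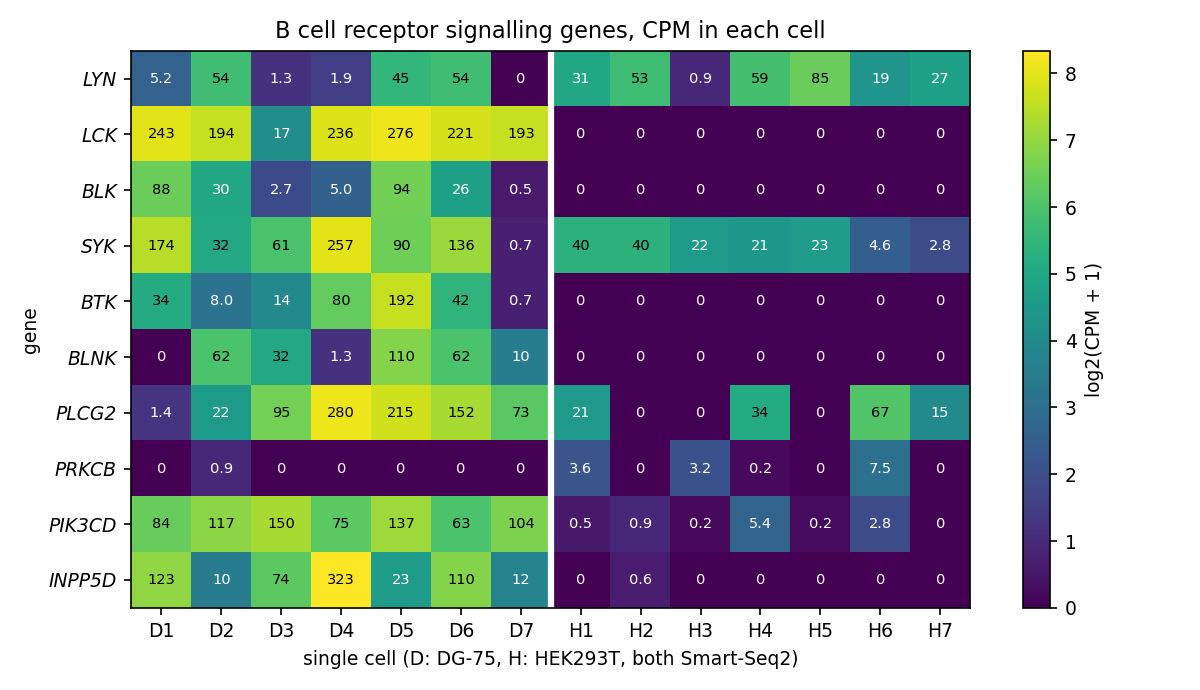
CPM of the 10 genes (rows) in 7 DG-75 cells (D1 to D7) and 7 HEK293T cells (H1 to H7), all Smart-Seq2; colour is log2(CPM + 1) and the printed number is the CPM. LCK is high in every DG-75 cell but D3 (16.6 CPM), PRKCB has reads in D2 alone among DG-75 cells, and LYN has reads in all 7 HEK293T cells.

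The Src family kinases came first in the order of the pathway, and LCK, better known as the kinase of the T cell receptor, had the most reads of the 3 described here. LCK stood at 243, 193, 16.6, 236, 276, 221 and 193 CPM in DG-75 cells 1 to 7. Cell 3, the shallowest library, was the low one, with 37 reads where the others had 1123 to 1525. Summed over the cells LCK was at 211 CPM (95% Poisson interval 206 to 215) against no read in HEK293T Smart-Seq2 cells, at least 5484-fold higher when 3 reads over the group are taken as the floor. Of all 39 HEK293T single cells 1 had LCK reads, a SMART-Seq cell with 10.4 CPM. With all 39 as background (0.371 CPM) LCK was 567.5-fold higher in DG-75. Among the T cell receptor partners CD3D, CD3E and CD3G had no read in the DG-75 cells. CD247, the CD3 zeta chain, had 24.5 CPM (121 reads) in cell 5 and 2.24 CPM (5 reads) in cell 3, and no read in the other DG-75 cells or in HEK293T Smart-Seq2 cells. In those same cells LCK had its highest and its lowest level, and the part of other cell types in the LCK values was not tested.

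LYN, which starts the signal and also feeds its inhibitory branch, fell into high and low DG-75 cells. It stood at 5.20, 54.0, 1.34, 1.89, 44.9, 53.8 and 0 CPM in cells 1 to 7. Cells 2, 5 and 6 were high, and the other 4 had 0 to 26 reads. HEK293T cells were not devoid of LYN: cells 1 to 7 had 30.9, 53.2, 0.939, 58.5, 84.9, 19.5 and 26.6 CPM. The ranges overlapped, the summed levels were 27.4 CPM in DG-75 and 38.4 CPM in HEK293T, and the log2 ratio of -0.47 turned to 0.30 with all 39 HEK293T cells and to 0.38 with the 100-cell pools as background.

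BLK, a Src kinase with expression largely restricted to B cells, was also read unevenly. Its level was 88.4, 30.2, 2.68, 5.05, 94.5, 25.6 and 0.508 CPM in cells 1 to 7. Cells 1 and 5 were highest, and cells 3, 4 and 7 had 3 to 24 reads. With no read in HEK293T Smart-Seq2 cells, BLK was at least 946-fold higher in DG-75 when 3 reads are the floor. It was 279-fold higher with all 39 HEK293T single cells as background (0.13 CPM). Of those 39 cells 3 had a BLK read, 2 of them variant 2 cells at 8.06 and 2.36 CPM. The former lay above DG-75 cells 3, 4 and 7. In the GENCODE 29 annotation BLK shares 21 exonic bases with the antisense gene AC022239.1. Whether the counting used strand is not given in the sources used here, so reads in that stretch cannot be told apart.

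Because these kinases act on the same tails, their levels were set side by side per length, as each gene's share of the RPKM (reads per kilobase and 1000000 reads) summed over 7 Src family genes. The family has further members that are not counted here, so these are shares of the 7 genes and not of the family. LCK held 44.2, 78.4, 62.4, 97.5, 57.5, 53.3 and 99.4% of that sum in DG-75 cells 1 to 7. In cell 3 the sum itself was low, at 12.6 RPKM, where the other cells had 98.7 to 269 RPKM. FGR, better known from myeloid cells, held 39.6, 21.6 and 13.97% in cells 1, 6 and 5 and 0.0752 to 1.55% in the other 4.

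In HEK293T cells the sum ran from 23.7 to 65.3 RPKM. LYN made up 0 to 11.2% of it in DG-75 and 0.958 to 37.9% in HEK293T. In HEK293T the broadly expressed YES1 held the largest share in 5 of 7 cells, FYN in the other 2. YES1 had 71.1 summed CPM in HEK293T and 0.0273 CPM (1 read) in DG-75, and SRC had 17.2 and 0.0545 CPM, whereas FYN stood at 25.1 and 25.7 CPM. FGR was at 62.5 summed CPM in DG-75 and had no read in the HEK293T cells. DG-75 cells 1, 5 and 6 had 1270, 400 and 616 reads of it, and cells 2, 3, 4 and 7 had 2, 1, 1 and 4. Of the 8 myeloid markers set beside it, the 3 that passed the level filter were over 2-fold higher in DG-75: LYZ at 63.6 CPM against no read, CD68 at 15.9 and 2.89 CPM, and CSF1R at 3.93 and 0.064 CPM. The other 5 were under 1 CPM in both lines, with MPO and S100A8 at 0 in DG-75. Over the 7 DG-75 cells the myeloid marker sum was highest in cell 2, at 298 CPM, where FGR had 0.254 CPM, and it was 38.6 CPM in cell 1, where FGR was highest at 254 CPM. Their part in the FGR values was not tested.

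**Figure D2:**
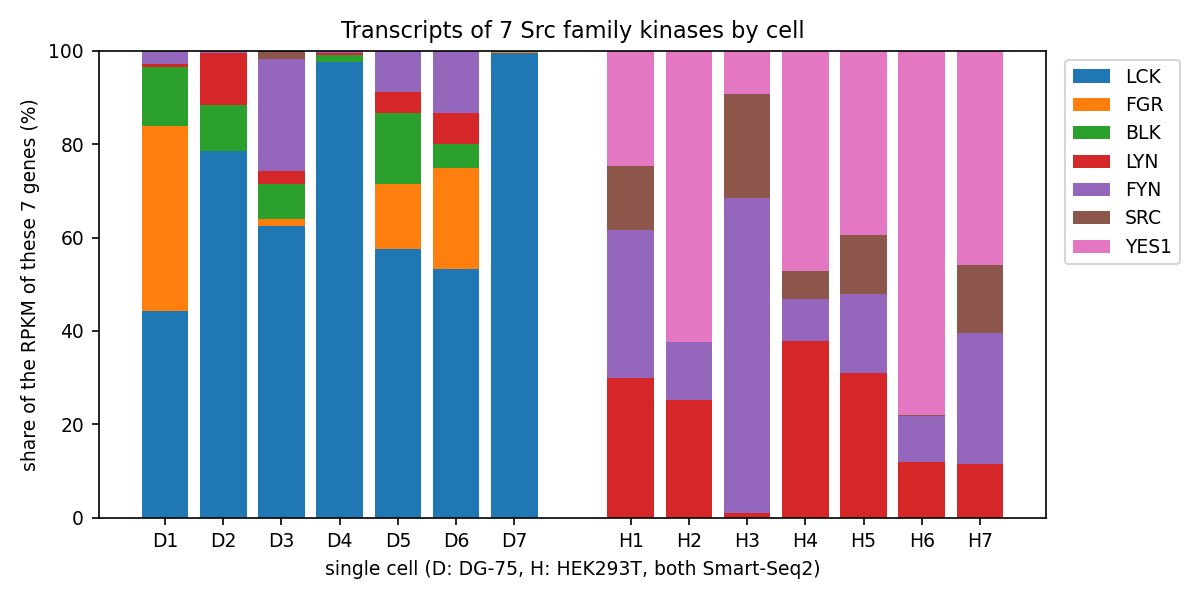
Share of the summed RPKM of 7 Src family genes (y axis, %; other members of the family not counted) in each DG-75 (D) and HEK293T (H) Smart-Seq2 cell; colours are genes. LCK makes up 44.2 to 99.4% of the DG-75 bars, while LYN, FYN, SRC and YES1 make up the HEK293T bars.

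SYK, the kinase that docks on the phosphorylated receptor, was read in every cell of both lines. DG-75 cells 1 to 7 had 174, 32.0, 61.3, 257, 90.2, 136 and 0.677 CPM, and HEK293T cells had 40.4, 39.7, 22.2, 21.1, 23.3, 4.65 and 2.83 CPM. Cell 7 of DG-75, with 4 reads, lay below all HEK293T cells, and 5 of the other 6 lay above all of them. Summed over the cells, SYK was 4.56-fold higher in DG-75, at 102 CPM against 22.4 CPM, and 9.22-fold higher than the 11.1 CPM of the 100-cell pools. Its relative ZAP70, which serves the T cell receptor, was at 1.47 CPM in DG-75 with reads in 3 cells.

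BTK, the kinase whose loss causes X-linked agammaglobulinaemia, varied the most of the 7 genes read in every DG-75 cell. The level was 34.4, 7.99, 14.3, 80.4, 192, 42.2 and 0.677 CPM in cells 1 to 7, so that cell 5 alone passed 100 CPM and cell 7 had 4 reads. The coefficient of variation (CV, SD over mean) of its CPM was 1.26, against quartiles of 0.643, 0.839 and 1.09 over the 5472 genes of like level. BTK was at least 1317-fold higher than in HEK293T Smart-Seq2 cells, none of which had a read, when 3 reads are the floor. It was 244.5-fold higher with all 39 HEK293T single cells as background (0.207 CPM). With the 100-cell pools (0.284 CPM, 4 reads) it was 178-fold higher. The summed DG-75 level of BTK, 50.6 CPM, was 28.5 CPM without cell 5. TEC, a kinase of the same family, was read in all 7 DG-75 cells, at 26.7 summed CPM, with only 7 and 3 reads in cells 2 and 3.

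BLNK, the adaptor between SYK and its targets, was missing from 1 DG-75 cell. It stood at 0, 62.4, 31.8, 1.26, 110, 62.4 and 10.5 CPM in cells 1 to 7. Cells 1 and 4 had 0 and 6 reads, although both were among the 3 cells with the most SYK. Over the group BLNK was at 42.1 CPM and at least 1096-fold higher than in HEK293T Smart-Seq2 cells, when 3 reads are the floor. It was 1645-fold higher with all 39 HEK293T single cells as background (12 reads) and 148-fold with the 100-cell pools (4 reads). Of its T cell counterparts LCP2 (SLP-76) was at 0.354 CPM with reads in 2 DG-75 cells, and LAT at 18.3 CPM with reads in 4.

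PLCG2, the phospholipase of the B cell pathway, was read in all DG-75 cells and in some HEK293T cells. DG-75 cells 1 to 7 had 1.40, 22.2, 95.3, 280, 215, 152 and 73.4 CPM, and HEK293T cells had 21.2, 0, 0, 34.3, 0, 66.6 and 14.6 CPM. The ranges overlapped, since DG-75 cell 1 had only 7 reads and 4 HEK293T cells had more than that. The summed level was 112 CPM in DG-75 and 19.5 CPM in HEK293T, a 5.76-fold difference. It was 23.2-fold with all 39 HEK293T single cells as background (4.83 CPM) and 18.6-fold with the 100-cell pools (6.03 CPM). PLCG1, the form used by the T cell receptor, was 4.32-fold higher in DG-75, at 44.0 against 10.2 CPM. In GENCODE 29 PLCG2 shares 318 exonic bases with RN7SKP176 on the same strand, so reads in that stretch cannot be assigned to either with certainty.

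PRKCB, which carries the signal from the phospholipase towards NF-kappaB, was the exception among the 10. In DG-75 it had 7 reads in cell 2 (0.888 CPM) and none in the other 6 cells. The HEK293T Smart-Seq2 cells 1 to 7 had 3.63, 0, 3.24, 0.151, 0, 7.46 and 0 CPM. The summed level in DG-75 was 0.191 CPM (95% Poisson interval 0.0767 to 0.393) against 2.06 CPM (1.76 to 2.41) in HEK293T, 10.8-fold lower, and without cell 2 DG-75 had no read of it. With 1 CPM added the log2 ratio was -1.36, and it was -0.44 with 5 CPM added and -0.27 on the authors' RPKM with 1 added, so PRKCB was past 2-fold with 1 or 0.1 CPM added and within it in those other settings.

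Other HEK293T preparations held more PRKCB than the Smart-Seq2 cells. Summed levels were 26.7, 23.1, 58.7 and 15.5 CPM with variants 1 to 4 and 14.8 CPM with SMART-Seq. In all, 35 of 39 HEK293T single cells (89.7%) had a PRKCB read, against 1 of 7 DG-75 cells (14.3%). Pools of 100, 50 and 10 cells had 27.6, 32.2 and 32.2 CPM, and the log2 ratio of DG-75 over HEK293T was -4.49 with all 39 single cells and -4.59 with the 100-cell pools. After each cell was thinned to 2000000 gene reads PRKCB was left in 1 DG-75 cell and 3 of 7 HEK293T Smart-Seq2 cells. Other kinases of the PKC family, chosen after the PRKCB values were seen, were read in DG-75: PRKCD at 15.3 CPM in all 7 cells, and PRKCQ at 31.3 CPM and PRKCA at 20.9 CPM in 6 cells each.

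**Figure D3:**
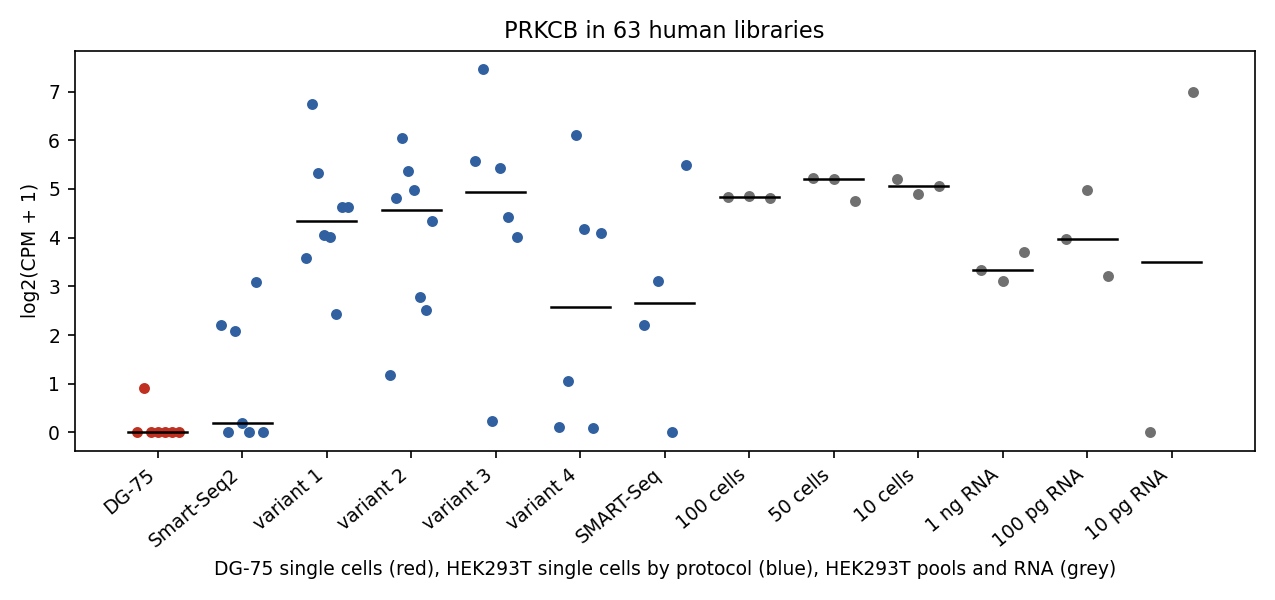
PRKCB as log2(CPM + 1) in each of the 63 human libraries, by group; points are libraries and bars are group medians. The 7 DG-75 cells (red) lie at 0 but for cell 2, while the HEK293T single cells of variants 1 to 4 and the 100, 50 and 10 cell pools all have reads.

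PIK3CD, the lymphocyte-enriched catalytic subunit of PI3-kinase, was the steadiest of the 10 genes in DG-75. It stood at 83.8, 117, 150, 75.3, 137, 62.7 and 104 CPM in cells 1 to 7. No cell was low, and its CV of 0.311 lay under the lower quartile of 0.643 for genes of like level, the only CV of the 10 to do so besides that of LCK (0.430). HEK293T Smart-Seq2 cells had 0 to 5.36 CPM, and the summed levels of 101 and 1.42 CPM gave a 71.0-fold difference. Without HEK293T cell 4, the one at 5.36 CPM, the background was 0.617 CPM and the difference 164-fold. It was 25.4-fold with the 100-cell pools as background and 13.5-fold with all 39 HEK293T cells, whose other protocols reached 14.9 summed CPM. In GENCODE 29 it shares 89 exonic bases with CLSTN1 on the opposite strand, where reads cannot be told apart without strand. Of the other catalytic subunits PIK3CG was at 61.4 CPM in DG-75, with only 1 read each in cells 3 and 5. It had no read in HEK293T Smart-Seq2 cells. PIK3CA was at 11.8 CPM in DG-75 and 0.230 CPM in HEK293T, and PIK3CB at 29.7 and 20.2 CPM.

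INPP5D, the phosphatase that opposes PIK3CD, ranged widely. DG-75 cells 1 to 7 had 123, 10.4, 73.8, 323, 22.9, 110 and 12.4 CPM. Cells 2, 5 and 7 were low and cell 4 was the highest value of any of the 10 genes. In HEK293T Smart-Seq2 cells there were 3 reads, all in cell 2 (0.568 CPM). The summed levels were 88.3 CPM (95% Poisson interval 85.3 to 91.4) and 0.0384 CPM (0.00792 to 0.112), for a log2 ratio of 6.43 with 1 CPM added. Without cell 4 the DG-75 level was 53.4 CPM and the log2 ratio 5.71. INPPL1, its widely expressed relative, stood at 52.8 CPM in DG-75 and 29.3 CPM in HEK293T.

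Per length, LCK led the 10 genes in DG-75, with a mean of 96.9 ± 42.2 RPKM (SD over 7 cells) and a median of 104. It exceeded PLCG2, the next by median, in 6 of 7 cells. The following 6 genes by median were PLCG2 (22.4 RPKM), PIK3CD (20.6), BLNK (18.9), SYK (18.7), INPP5D (15.5) and BTK (13.4). Their means ran from 20.2 to 28.1 RPKM. The SDs were 17.7 to 26.1 RPKM for 5 of them and 6.46 RPKM for PIK3CD, and each gene exceeded the next by median in 3 to 5 of 7 cells, so no order among them is drawn. BLK (median 9.90) and LYN (1.28) came next, and PRKCB was last at 0. The length behind the authors' RPKM was not constant for BLNK, where reads and RPKM imply 1224 to 1829 bases depending on the cell, so its place is less certain.

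A read of 7 of the 10 genes (LCK, BLK, SYK, BTK, PLCG2, PIK3CD and INPP5D) was found in every DG-75 cell, against 42.2% of all genes compared and 77.2% of those of like level. The like level was set by the 9 genes other than PRKCB, and 7 of 9 is near that 77.2%. The count stayed at 7 after thinning to the same depth, and it was 3 (LCK, PIK3CD and INPP5D) when a cell needed 10 reads. By cell, 8 to 10 of the genes had a read and 5 to 9 had at least 10 reads. Cell 2 alone had all 10. Cell 7 had 5 genes with at least 10 reads, the fewest, and it also had the lowest summed level of the 10 genes (395 CPM) and of the B cell markers (642 CPM). Cell 4 had the highest sum of the 10 genes, 1260 CPM. Cell 7 was not shallow: its 5910324 gene reads were the third highest of the 7.

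Among HEK293T single cells of any protocol, LYN, SYK, PRKCB and PIK3CD were read in most: 27, 33, 35 and 26 of 39 cells. PLCG2 was read in 11 cells, and LCK, BLK, BTK, BLNK and INPP5D in 1 to 3. The protocols did not share every gene. LYN was at 38.4 CPM with Smart-Seq2, 38.2 with variant 4 and 37.7 with SMART-Seq, at 13.03 and 16.4 with variants 1 and 2, and had no read in the 6 cells of variant 3, which allows up to 0.0298 CPM (3 reads). PLCG2 was at 19.5 CPM with Smart-Seq2, 0.0545 to 5.62 with the 4 variants, and without a read with SMART-Seq. Each protocol is 1 sample, so these differences carry no test.

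Replicated libraries of HEK293T allowed a test of how lysed cells and purified RNA differed. With 100 cells against 1 ng of RNA, LYN and PRKCB were higher in cells, PIK3CD was lower, and SYK and PLCG2 did not pass. The other 5 genes had too few reads to be tested. In pooled material a smaller share of cells with a transcript and less of it per cell cannot be told apart. Calls are adjusted p-values under 0.05 in edgeR's quasi-likelihood test with Benjamini-Hochberg adjustment over 11487 genes, of which 62.7% were called, 29.7% higher in cells and 33.1% lower, so 3 of 5 called is near that background.

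PRKCB stood at 27.7, 28.04 and 27.2 CPM in the 100-cell libraries and at 9.04, 7.67 and 11.96 CPM in those of 1 ng of RNA. All cell libraries were above all RNA libraries, with means of 27.6 ± 0.427 and 9.56 ± 2.19 CPM (SD, n = 3 each) and a log2 fold change of 1.76 ± 0.25 (SE; edgeR adjusted p = 7.6e-06). LYN had 22.2, 20.9 and 19.6 CPM in the 100-cell libraries, all above the 10.1, 12.6 and 10.7 CPM found from RNA (log2 fold change 1.15 ± 0.24 SE, edgeR adjusted p = 0.000492).

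PIK3CD went the other way, with 3.87, 4.67 and 3.60 CPM from cells below the 6.38, 10.8 and 15.03 CPM from RNA. The groups did not overlap (log2 fold change -1.18 ± 0.35 SE, edgeR adjusted p = 0.00659), but the call was lost without the third 1 ng library (log2 fold change -0.86, adjusted p = 0.0676). The mean of SYK was 10.8 ± 2.58 CPM for the pools against 14.99 ± 1.95 CPM for RNA (edgeR adjusted p = 0.452), and PLCG2 at 6.01 ± 0.277 and 8.15 ± 2.16 CPM (edgeR adjusted p = 0.586), n = 3 each. With library totals in place of TMM factors the median gene moved by -0.23 on the log2 scale and 35.6% of the calls were higher in cells, where TMM gave 47.3%. The same 3 of these genes were called. The first and second 100-cell libraries differed by little more than counting error (mean chi-square of 1.75 per gene, against 18.999 and 18.7 with the third) and may not be independent, and PRKCB, LYN and PIK3CD were called with either left out.

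With 10 cells against 100 pg of RNA, none of the 5 tested genes passed in edgeR, DESeq2 or limma, and 0 had an unadjusted p under 0.05 in edgeR, where 19.3% of 11671 genes were called, 7.81% higher in cells and 11.5% lower. PRKCB had 35.8, 28.8 and 32.2 CPM in the 10-cell pools and 14.8, 30.5 and 8.29 CPM with RNA, so that 1 RNA library reached the range of the cells (log2 fold change 0.84 ± 0.42 SE, edgeR adjusted p = 0.192). Without that library, the middle one of the RNA values given, the log2 fold change was 1.48 and the adjusted p = 0.0207. For PIK3CD the pools had 3.53, 10.9 and 3.09 CPM and the RNA libraries 10.8, 10.9 and 18.8 CPM (log2 fold change -1.23 ± 0.59 SE, edgeR adjusted p = 0.176). LYN, SYK and PLCG2 had edgeR adjusted p-values of 0.392, 0.491 and 0.225, and the ranges of their groups overlapped. At 10 pg of RNA, 1 of 2 libraries had PRKCB reads (126.5 CPM), both had LYN with 1 and 2 reads, and no other of the 10 genes had a read.

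**Figure D4:**
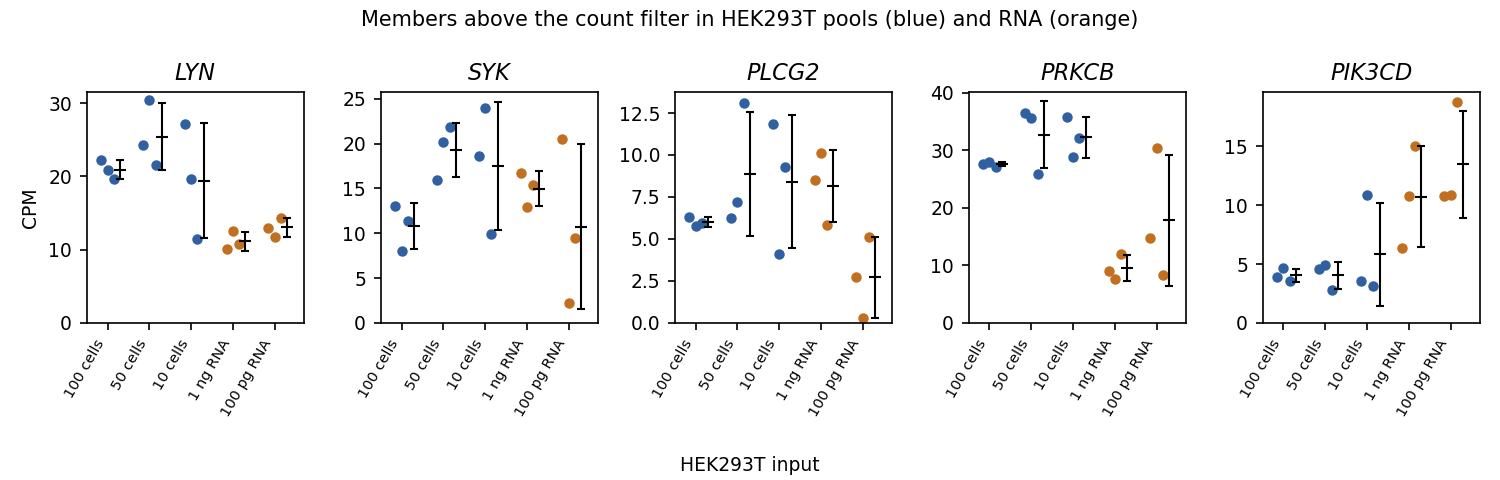
CPM of the 5 tested genes in HEK293T pools of 100, 50 and 10 cells (blue) and in 1 ng and 100 pg of RNA (orange); points are libraries, bars are mean ± SD of 3 libraries. LYN and PRKCB lie higher in 100 cells than in 1 ng of RNA and PIK3CD lies lower, and the scatter is wider at 10 cells and 100 pg.

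The rest of the pathway was less one-sided than the 10 genes. Of 71 further pathway genes in 7 lists 68 passed the level filter, and 34 were over 2-fold higher in DG-75, 7 lower and 27 neither, with a median log2 ratio of 1.00. Against 25.1% of all genes higher and 33.8% lower, the receptor and inhibitory lists were the most one-sided. Of 5 measured receptor and co-receptor genes all 5 were higher, with CD79A, a signalling chain of the receptor, at 701 CPM against 0.0896 and MS4A1 (CD20) at 461 CPM against none. CR2 had no read in either line.

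Inhibitory receptors and phosphatases were higher for 7 of 11, led by CD22, a receptor that dampens the signal, at 207 CPM in 6 of 7 DG-75 cells and with no read in the HEK293T Smart-Seq2 cells. PTPN11 (SHP2) was at 132 and 142 CPM. FCGR2B, the inhibitory Fc receptor that recruits INPP5D, had no read in either line. Adaptors and PI3-kinase partners split into 6 higher, 3 lower and 4 neither of 13. DAPP1, which binds the lipids made by PI3-kinase, was at 75.8 CPM against no read, GRB2 at 482 and 191 CPM, and CBLB at 152 and 24.3 CPM. BANK1, a B cell scaffold, had no read in DG-75.

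Further downstream the list medians lay between 0.47 and 1.17, a range that also holds the 0.90 of the adaptor list. In the Vav, Ras and ERK list 4 of 12 genes were higher and 3 lower (median 0.47), with RASGRP3, an exchange factor for Ras, at 194 and 3.98 CPM and NRAS at 383 and 196 CPM. Calcium and NFAT genes were higher for 6 of 11 and lower for 0 (median 1.17), among them NFATC2 at 31.8 and 0.0384 CPM and NFATC1 at 137 and 21.0 CPM. Of 9 genes of the NF-kappaB arm 4 were higher, 0 lower and 5 neither (median 0.94), with REL, an NF-kappaB subunit, at 127 and 24.97 CPM and NFKBIA, the inhibitor of NF-kappaB, at 230 and 35.3 CPM. The PDK1 and AKT list had 2 higher, 1 lower and 4 neither of 7, with FOXO1, a factor that AKT keeps out of the nucleus, at 91.5 and 10.7 CPM and AKT2 at 90.3 and 58.9 CPM.

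Counterparts of the 10 genes in other cell types or tissues were set beside them. Of 16 such genes 15 passed the filter, and 9 were higher in DG-75, 2 (SRC and YES1) lower and 4 neither, with a median log2 ratio of 2.01. The genes most like the mean of the 10 across the 63 human libraries, by Pearson's r of log2(CPM + 1) among 5983 genes with a read in every DG-75 cell, were CD74 (0.90), PLEK (0.90), ICAM2 (0.90), PTPRC (0.90) and EPS8L2 (0.89). The points are 7 DG-75 and 56 HEK293T libraries of different depth and input, so the coefficients describe mainly the split between the lines and carry no test.

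**Figure D5:**
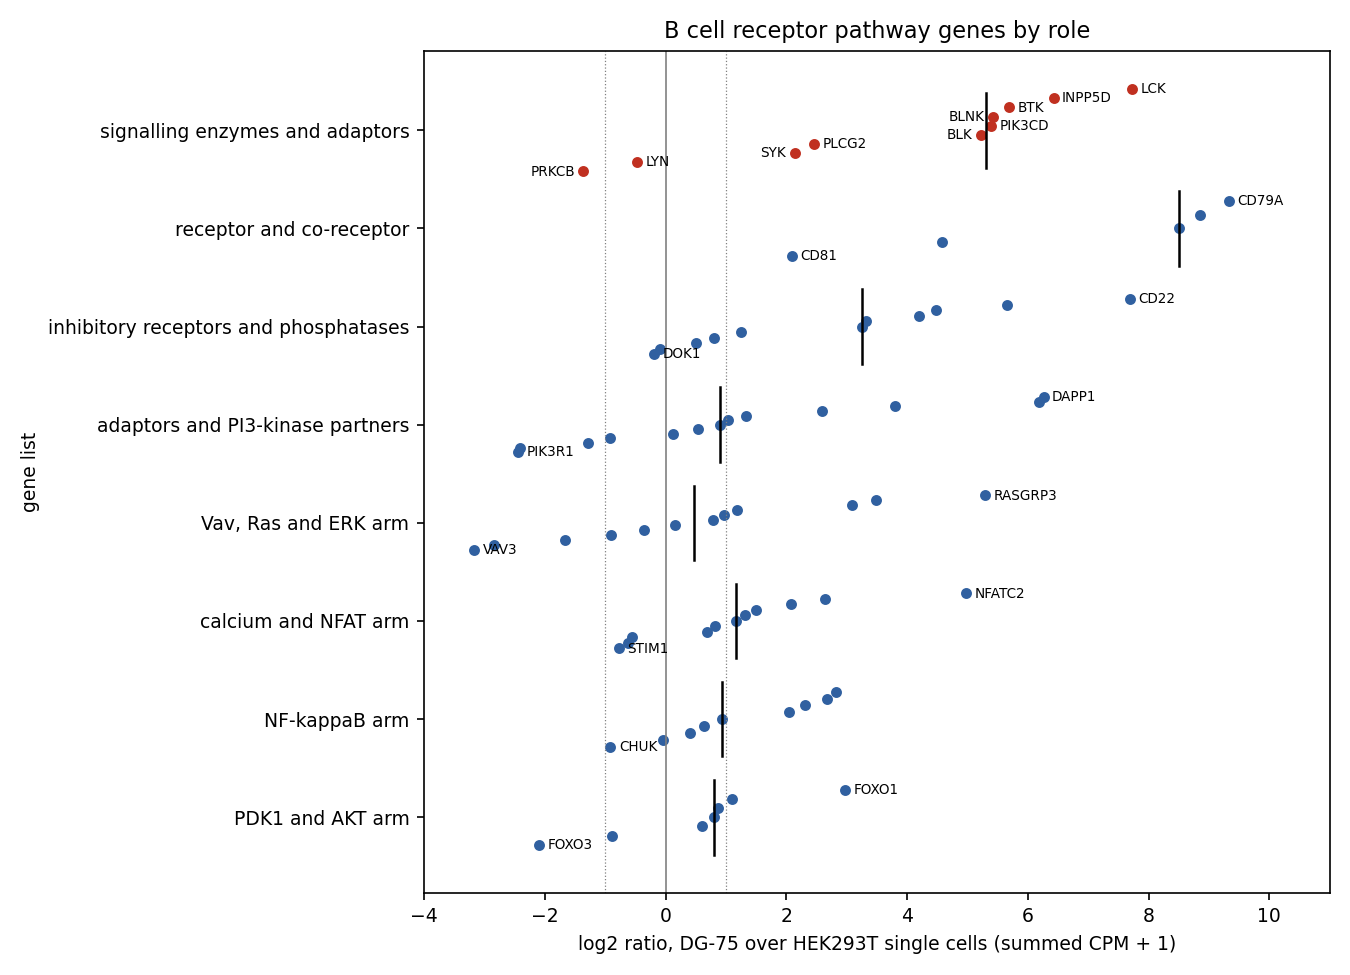
Log2 ratio of DG-75 over HEK293T single cells (x axis, summed CPM + 1) for each gene that passed the level filter, by list; black bars are list medians and dotted lines mark 2-fold. The 10 genes (red, median 5.31) spread from PRKCB (-1.36) to LCK (7.72), and the downstream arms centre between 0.47 and 1.17.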

How the data were processed

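RNA of single cells, cell pools and diluted RNA was sequenced, and for each library the authors deposited a count of reads per gene and an RPKM value, per the file headers. Reads were aligned to hg19 with STAR, per the submitters' processing notes; how reads were counted, and with which strand setting, is not given in those sources. Replicates are separate labelled libraries of unstated culture, so a p-value here covers the spread of these libraries alone, which may be technical; numbers of single cells follow accession order and are names only. Symbols with several entries (at most 0.192% of a library's reads) were summed.

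CPM was computed from the counts. Single-cell groups are 1 sample each and were described by summed CPM, exact 95% Poisson intervals and ratios with 1 CPM added, for genes of at least 1 summed CPM in either line; a group without reads was set against 3 reads over the group. Pools and RNA were compared with edgeR 4.0.16 (two-sided quasi-likelihood test, TMM, filterByExpr, R 4.3.3), only the groups compared entering a fit; DESeq2 1.42.0 and limma 3.58.1 on log2(RPKM + 1) were alternatives. The fits were checked on simulated counts. The 10 genes and the other lists were chosen with earlier results of these data known. Named outside the 10 were, for each list, the 2 genes with the highest DG-75 CPM and the gene with the largest ratio, the 16 counterparts and the 5 most alike genes; PKC genes, CSF1R, MPO, S100A8, genes with no read and T cell markers at 0 were added after their values were seen. Some genes of these lists enter the counts and are not reported here by name. Coordinates and overlaps are from GRCh38 annotations and were not applied to hg19 reads.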

Additional observations from a re-analysis of the deposited data

Results flagged for a closer look

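Dixon's test was run on log2(CPM + 1) of each of the 10 genes within each single-cell group of 4 to 10 cells that had any read, 47 sets in all, and 14 held a cell apart from the others. In 11 of these every other cell was at 0, where the test cannot come out otherwise. The other 3, for LCK, SYK and LYN, came from the 36 sets with reads in more than 1 cell. The nominal rate of the test, about 1 in 20, is for independent and normally distributed values. Cells of 1 sample with many values at 0 need not meet that, so the flags only mark cells for a closer look. In DG-75, LCK was low in cell 3, at 16.6 CPM where the other cells had 193 to 276 CPM. SYK was low in DG-75 cell 7, at 0.677 CPM where the others had 32.0 to 257 CPM. PRKCB was in DG-75 cell 2 alone, at 0.888 CPM. In HEK293T Smart-Seq2 cells LYN was low in cell 3, at 0.939 CPM where the others had 19.5 to 84.9 CPM.

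The remaining 10 are single HEK293T cells with reads of a gene that every other cell of the group lacked. INPP5D was at 0.568 CPM in Smart-Seq2 cell 2 and at 0.115 CPM in variant 2 cell 1. With variant 1, BLK was at 0.114 CPM in cell 2 and PLCG2 at 0.345 CPM in cell 8. Variant 2 cell 4 had both BTK at 1.18 CPM and PLCG2 at 14.5 CPM. With variant 4, BTK was at 5.70 CPM in cell 6 and BLNK at 0.908 CPM in cell 1. SMART-Seq cell 3 had LCK at 10.4 CPM and BLNK at 0.0599 CPM.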

How the results depend on the processing

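In all settings 8 of the 10 genes stood over 2-fold above HEK293T, and the 1 over 2-fold below it, PRKCB, became 0 with the authors' RPKM and with 5 CPM added. Genes read in every DG-75 cell were 7, 7 to 8 without a cell and 3 at 10 reads or more. With 100 cells against 1 ng, 3 genes were called, 2 to 3 without a library; with 10 cells against 100 pg, 0, and 0 to 1 without a library (1, PRKCB, without the 100 pg library at 30.5 CPM of it). Over all genes 2252 were called there, and 1252 to 2264 without a library (1252 and 1400 without the first and second 10-cell libraries). Same-numbered libraries did not deviate together (correlations of 0.02, 0.063 and 0.008, and of 0.015 and 0.022), so the numbers are not taken as pairs; with the replicate block 3 and 0 of the 10 genes and 7278 and 1795 of all genes were called. Of the values for single genes, 424 moved by less than the SD between cells or stayed on their side of the threshold, which for LYN spans both signs; 14 ratios moved by more, 1 call was lost and 1 gained. HEK293T cells counted at 10 reads or more was an alternative chosen after seeing the data, and 3 genes instead of 4 were then in most cells. Depth limits the zeros: 3 reads over the DG-75 cells are 0.0818 CPM. The causes of these changes were not tested.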
